A study of Homo sapiens with 3 samples.

Results

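The genes described here are 10 inflammatory cytokines and chemokines that tumor cells can secrete, chosen by name from a table of 58333 genes measured in Cal62 cells: *CXCL8*, *CXCL1*, *CXCL2*, *CXCL3*, *CCL2*, *CCL5*, *IL6*, *LIF*, *IL1A* and *IL1B*. Cal62 is an established human thyroid cancer cell line, and its cells were transfected by lipofection with a negative control siRNA (siControl) or with 1 of 2 siRNAs against *ADAR1*, called siADAR1 #1 and siADAR1 #2. The gene is named *ADAR* in the annotation and encodes an enzyme that edits adenosine to inosine in double-stranded RNA. Poly(A)+ RNA was sequenced from 2 libraries per siRNA, replicate 1 and replicate 2, which the study's methods describe as biological replicates. All 6 libraries come from the same cell line, no group was left untransfected, and the hours between transfection and RNA extraction are not given in the sources used here for the sequenced cells.

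CXC chemokines such as *CXCL8* and *CXCL1* are small secreted proteins that attract neutrophils through the receptors *CXCR1* and *CXCR2*, whereas CC chemokines such as *CCL2* and *CCL5* attract monocytes and T cells. IL-6 and LIF are cytokines of one family that signal through the shared receptor subunit gp130, encoded by *IL6ST*, to the transcription factor STAT3. IL-1α and IL-1β are early mediators of inflammation, and through the transcription factor NF-kappaB they can induce the other cytokines named here, whose mRNAs often carry AU-rich elements that shorten their lifetime.

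The depth was 30114840 to 50029763 reads on genes per library, and levels are given as normalized counts, which are reads divided by the size factor of the library. *ADAR* was measured at 10906 and 11701 normalized counts in the siControl libraries, at 1328 and 2246 with siADAR1 #1 and at 1663 and 2928 with siADAR1 #2. Its log2 fold change (log2FC) was -2.71 with siADAR1 #1 (SE 0.305, adjusted p = 0.003555, limma) and -2.35 with siADAR1 #2 (SE 0.305, adjusted p = 0.001532), and the siRNAs did not differ beyond this error (adjusted p = 0.4058). Of 7 thyroid markers 4 were tested, *NKX2-1* had no read in any library, *SLC5A5* stayed between 7.14 and 14.03 and *TG*, the thyroglobulin gene, was at 0 to 62.4. *PAX8*, a thyroid transcription factor gene, was at 13927 and 15868 in siControl, 10272 and 15074 with siADAR1 #1 and 2542 and 5484 with siADAR1 #2, and it fell with siADAR1 #2 (log2FC -1.99, adjusted p = 0.004106), as did *FOXE1* (log2FC -1.21, adjusted p = 0.02305). With the replicate number as a block (described with *CXCL8*), *FOXE1* was also lower with siADAR1 #1 (adjusted p = 0.03634) and *TG* higher with siADAR1 #2 (adjusted p = 0.03496). All 5 epithelial markers were tested and *KRT8* and *KRT18* had at least 23116 normalized counts in every library. *CDH1* was at 210.2 and 39.8 in siControl, 49.6 and 52.8 with siADAR1 #1 and 196.2 and 36.6 with siADAR1 #2. It was not called with either siRNA. With siADAR1 #2, *KRT18* fell (log2FC -0.85, adjusted p = 0.002762) and *KRT19* rose (log2FC 1.18, adjusted p = 0.0006961), while *EPCAM* was at 0.32 (adjusted p = 0.111). Of 7 leukocyte markers, *CD3E* had no read, *PTPRC*, *LYZ*, *ITGAM* and *CD79A* stayed at or under 10.1 normalized counts and the 2 tested both moved. *CD14*, a monocyte marker, was at 44.7 and 34.7 in siControl and rose to 118.8 and 113.1 with siADAR1 #1 (log2FC 1.5, adjusted p = 0.01685), and *CD68*, a lysosomal gene, rose with siADAR1 #2 (log2FC 1.80, adjusted p = 0.009753) and, with the block, with siADAR1 #1 (adjusted p = 0.0281). The summed leukocyte level, mostly *CD68*, was 306 and 462.1 in siControl, 563 and 753.7 with siADAR1 #1 and 835.7 and 1601 with siADAR1 #2. Of 3 endothelial markers, *PECAM1* and *CDH5* were tested and not called, and *VWF* was not tested. The part of these marker changes in the cytokine values was not tested.

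Promoters and AU-rich elements of the members are shown before their levels. A promoter was taken from the RefSeq table of GRCh38.p14 as 250 bases before to 50 bases after the start listed there, and 7 of the 10 members had an entry. *CCL2*, *CCL5* and *LIF* had none. The listed start can differ from the GENCODE gene coordinates given further on. For *IL6* the promoter (22726950 to 22727249) lies inside the GENCODE span of the gene (22725884 to 22732002). An NF-kappaB motif, GGANNTTCC on either strand, was present in 5 of these 7 promoters and in 4.59% of all 27305 promoters of this length. It lay in the promoters of *CXCL8*, *IL6*, *CXCL1*, *CXCL2* and *CXCL3*, with its first base 72 to 91 bases before the start. The 120 bases from 130 to 11 bases before the start are printed 5′ to 3′ on the gene's strand, with the motif in capitals, for *CXCL8* (chr4:73740439-73740558, plus strand), *IL6* (chr7:22727070-22727189, plus), *CXCL1* (chr4:73869263-73869382, plus), *CXCL2* (chr4:74099206-74099325, minus) and *CXCL3* (chr4:74038700-74038819, minus).
CXCL8: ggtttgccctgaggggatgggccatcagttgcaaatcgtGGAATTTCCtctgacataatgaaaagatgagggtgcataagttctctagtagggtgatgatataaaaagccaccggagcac
IL6: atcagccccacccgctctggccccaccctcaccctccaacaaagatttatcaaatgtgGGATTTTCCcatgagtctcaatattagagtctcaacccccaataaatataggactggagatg
CXCL1: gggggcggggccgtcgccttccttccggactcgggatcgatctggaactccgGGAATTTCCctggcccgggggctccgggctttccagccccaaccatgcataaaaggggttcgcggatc
CXCL2: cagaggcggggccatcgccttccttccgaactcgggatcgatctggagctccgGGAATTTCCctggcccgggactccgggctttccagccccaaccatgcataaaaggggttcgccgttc
CXCL3: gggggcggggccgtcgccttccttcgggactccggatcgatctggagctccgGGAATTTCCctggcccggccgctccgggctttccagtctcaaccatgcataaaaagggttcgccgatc

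The motif has the same 9 letters in all 4 CXC genes, and the flanking bases of *CXCL1*, *CXCL2* and *CXCL3* are nearly alike, while *IL6* holds another variant of it. The AP-1 motif TGANTCA, searched on both strands, was found in *CXCL8*, beginning 137 bases before the start, and at 2 places in *IL1A*, against 7.76% of all promoters. Those of *IL1A* begin 12 bases before the start and at base 39 after it. The TATA box letters TATAAA, on the gene's strand, were found in *CXCL8* and *IL1A*, against 7.71% of all promoters. The match begins 31 bases before the start in *CXCL8* and at -239 relative to the start in *IL1A*. Only these exact letters were searched, so near-matches in the other promoters were not counted. The promoter of *IL1B* held none of these motifs. A match is a description of the letters, and binding was not measured.

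AU-rich elements were counted in the 3′ untranslated region of the canonical GENCODE release 44 transcript. The 9 letters ATTTATTTA occurred in 4 of the 10 members and in 7.07% of 19372 protein-coding genes. The shorter pentamer ATTTA was found 10 times in *CXCL2*, 9 times in *CXCL8*, 7 times in each of *CXCL3* and *LIF*, 6 times in each of *CXCL1*, *IL6* and *IL1B*, 5 times in *IL1A*, 1 time in *CCL2* and not at all in *CCL5*. Per 1000 bases of this region the highest densities were 14.1 in *IL6* and 13.97 in *CXCL2*, and that of *LIF* was 2.19. The first 9-letter match of each gene that has one is shown with 10 bases on either side, in DNA letters and with the match in capitals.
CXCL8: ttatttatgtATTTATTTAagcatcaaat
CXCL1: gaagtcttctATTTATTTAtttattcatt
CXCL2: gaagtcttctATTTATTTAtttatttatt
IL1B: ccgcttccctATTTATTTAtttatttgtt

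In the siControl cells *LIF* had the highest level per length, with 2221 normalized counts per kb of exon as the mean of 2 libraries. *CXCL1* at 216, *CXCL2* at 136.3 and *CXCL8* at 62.6 followed on the same scale, and their siControl libraries overlapped one another in part. *CCL5* at 18.1, *IL6* at 17.5, *IL1A* at 16.1 and *CXCL3* at 14.7 were lower on this scale, and the spread of the libraries does not resolve their order. *IL1B* at 2.75 and *CCL2* at 0.56 were the lowest. The length used joins all annotated exons of a gene. It exceeds the canonical transcript for *IL6* (4321 against 1127 bases), *CXCL8* (2588 against 1642) and *CXCL3* (2219 against 1075), among others. For *LIF* (3871) and *IL1A* (2017) the lengths are equal, so the order of the members below *LIF* can change with the length used. *CCL2* had 0 to 2 reads in every library, which is under 3 reads, and *IL1B* had 3 to 13 reads. These 2 genes did not pass the filter (an average over all libraries of at least 10 normalized counts), so 8 of the 10 members and 20247 of the 58333 genes were tested.

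**Figure D1:**
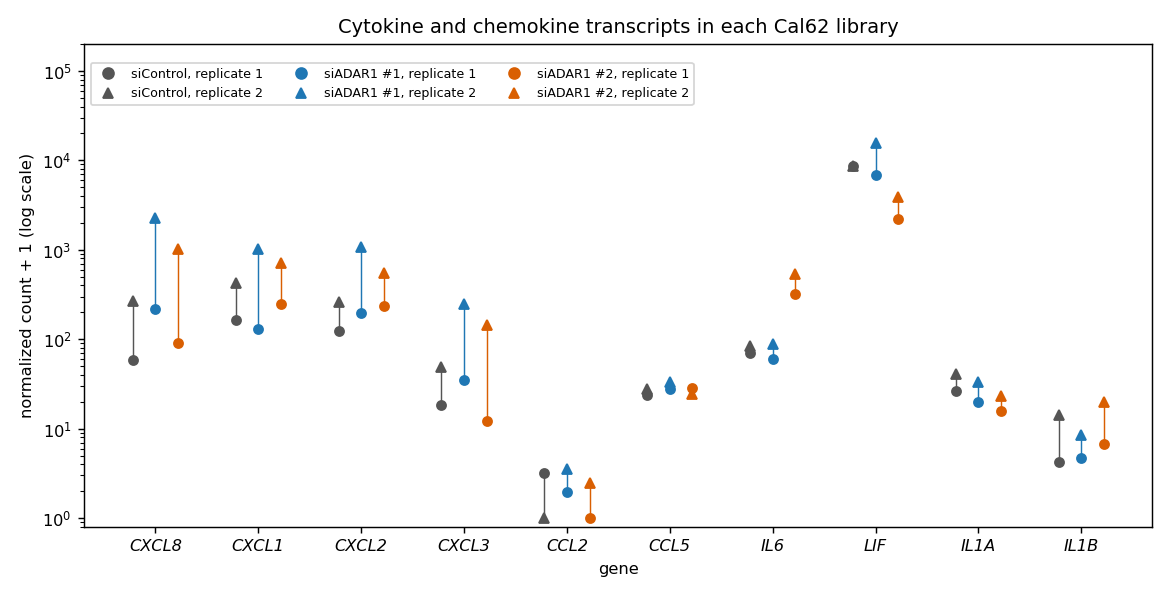
Normalized count plus 1 on a log axis for each of the 10 members in each library, with circles for replicate 1, triangles for replicate 2, a colour for each siRNA and a line joining the 2 libraries of a group. *IL6* with siADAR1 #2 (322 and 535) lies above all other *IL6* values, *LIF* with siADAR1 #2 (2226 and 3885) lies below all other *LIF* values, and for the CXC chemokines the triangle is above the circle in every group.

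*IL6* rose and *LIF* fell with siADAR1 #2, and neither change passed the test with siADAR1 #1. A gene was called when its adjusted p was below 0.05 and its log2FC was beyond 0.5 in either direction. By this rule 2 of the 8 members tested were called with siADAR1 #2, against 27.5% of all genes tested, and 0 of 8 with siADAR1 #1, against 17.4%. The median log2FC of the 8 members was 0.59 with siADAR1 #2 and 0.37 with siADAR1 #1, while the median of all genes tested was -0.02 and -0.03. Both siRNAs were set against the same siControl libraries.

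*IL6*, on chromosome 7 (22725884 to 22732002, plus strand, GRCh38), encodes the cytokine IL-6, a driver of the acute-phase response. It was measured at 68.6 and 82.6 normalized counts in siControl, at 58.9 and 86.7 with siADAR1 #1 and at 322 and 535 with siADAR1 #2. The siADAR1 #2 libraries were both above the other 4, and those of siADAR1 #1 spanned the siControl range. With siADAR1 #2, 32.5% of all genes tested had both libraries above siControl. The log2FC of *IL6* was 2.42 with siADAR1 #2 (SE 0.318, adjusted p = 0.0016, limma) and -0.07 with siADAR1 #1 (SE 0.318, adjusted p = 0.9006). Within replicate 1 the fold over siControl was 4.69 with siADAR1 #2, and within replicate 2 it was 6.47. In bulk RNA, more cells that make *IL6* and more *IL6* mRNA per cell cannot be told apart.

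*LIF*, on chromosome 22 (30240453 to 30246759, minus strand), encodes leukemia inhibitory factor, which acts through LIFR and gp130. Its level was 8580 and 8614 normalized counts in siControl, 6842 and 15579 with siADAR1 #1 and 2226 and 3885 with siADAR1 #2. Here too the siADAR1 #2 libraries stood apart, below the other 4, whereas one siADAR1 #1 library was below and one above siControl. With siADAR1 #2, 35.6% of all genes tested had both libraries below siControl. *LIF* had a log2FC of -1.55 with siADAR1 #2 (SE 0.38, adjusted p = 0.01899, limma) and of 0.26 with siADAR1 #1 (SE 0.38, adjusted p = 0.6785). The call with siADAR1 #2 was lost without siControl replicate 1 (adjusted p = 0.1066), without siControl replicate 2 (adjusted p = 0.09971) and without siADAR1 #2 replicate 1 (log2FC -1.15, adjusted p = 0.1155), although the value stayed below 0.

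Set directly against each other, siADAR1 #2 and siADAR1 #1 differed for the same 2 members, against 33.7% of all genes tested. The difference of siADAR1 #2 minus siADAR1 #1 was 2.50 on the log2 scale for *IL6* (SE 0.318, adjusted p = 0.001065, limma) and -1.81 for *LIF* (SE 0.38, adjusted p = 0.008203). Without siADAR1 #2 replicate 1 the *LIF* difference was -1.41 (adjusted p = 0.05253).

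*CXCL8* encodes interleukin-8, the main neutrophil chemoattractant of human cells, and is on chromosome 4 (73740519 to 73743716, plus strand). It had 57.7 normalized counts in siControl replicate 1 and 266.2 in replicate 2, 217 and 2269 with siADAR1 #1, and 89.6 and 1022 with siADAR1 #2. The groups overlapped, since replicate 2 was above replicate 1 by a ratio of 4.61 in siControl, 10.5 with siADAR1 #1 and 11.4 with siADAR1 #2. With the replicates left unmatched, its log2FC of 2.47 with siADAR1 #1 had an SE of 1.37 (adjusted p = 0.2549, limma), and that of 1.27 with siADAR1 #2 had the same SE (adjusted p = 0.531). Compared within replicates, *CXCL8* was 3.76-fold and 8.52-fold of siControl with siADAR1 #1 and 1.55-fold and 3.84-fold with siADAR1 #2. Without siADAR1 #2 replicate 2 its unmatched log2FC with siADAR1 #2 was -0.47, and it was not called.

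*CXCL1*, *CXCL2* and *CXCL3* encode the closely related GRO chemokines, which bind CXCR2. *CXCL2* (chromosome 4, 74097040 to 74099196, minus strand) was at 123 and 258 normalized counts in siControl, 194.5 and 1066 with siADAR1 #1, and 237 and 555 with siADAR1 #2. In each replicate both siRNA libraries of *CXCL2* were above siControl, by 1.58-fold to 4.13-fold, while the groups overlapped across replicates. *CXCL1* (73869393 to 73871308, plus strand) was at 161.2 and 427 in siControl, 130 and 1016 with siADAR1 #1, and 247 and 706 with siADAR1 #2. *CXCL1* thus lay below its siControl partner in one siADAR1 #1 library, at 0.81-fold, and above it in the other, at 2.38-fold. *CXCL3* (74036589 to 74038807, minus strand) was at 17.4 and 47.9 in siControl, 33.7 and 245 with siADAR1 #1, and 11.3 and 145 with siADAR1 #2. *CXCL3* was above its siControl partner in both replicates with siADAR1 #1 and in replicate 2 alone with siADAR1 #2. None of these 3 genes was called in the fit without the replicate number, where their adjusted p was 0.2693 to 0.7905 with either siRNA. Their coding sequences of 324 bases are 90.7% to 94.4% identical, and at most 2.3% of the 75-base windows of one transcript occur in another without a mismatch. The share of reads assigned to the wrong gene among them was not measured.

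No label states that the replicate numbers pair the libraries, and the main fit had no block. The deviations of same-numbered libraries from their group means correlated weakly across genes, at 0.111 to 0.15 in each pair of groups. Calls made only under the block rest on this pairing. When the replicate number was a block in the fit, the standard error of *CXCL8* fell to 0.316 and *CXCL8* passed the test with both siRNAs, at adjusted p = 0.002506 with siADAR1 #1 and 0.01698 with siADAR1 #2 (limma). *CXCL2* also passed, with a log2FC of 1.34 (SE 0.323, adjusted p = 0.02164) for siADAR1 #1 and of 1.01 (adjusted p = 0.04329) for siADAR1 #2. *CXCL3* with siADAR1 #1 was just outside, at a log2FC of 1.58 (SE 0.481, adjusted p = 0.05013). Thus 2 of 8 members were called with siADAR1 #1 under the block, against 20.2% of all genes, and 4 of 8 with siADAR1 #2, against 30% of all genes. Between the siRNAs the block added *CXCL8* as lower with siADAR1 #2, by a log2FC of -1.20 (adjusted p = 0.01794), to make 3 of 8 members against 35.8% of all genes. The calls of *IL6* and *LIF* stood under the block, at adjusted p = 0.000349 and 0.002097 with siADAR1 #2.

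**Figure D2:**
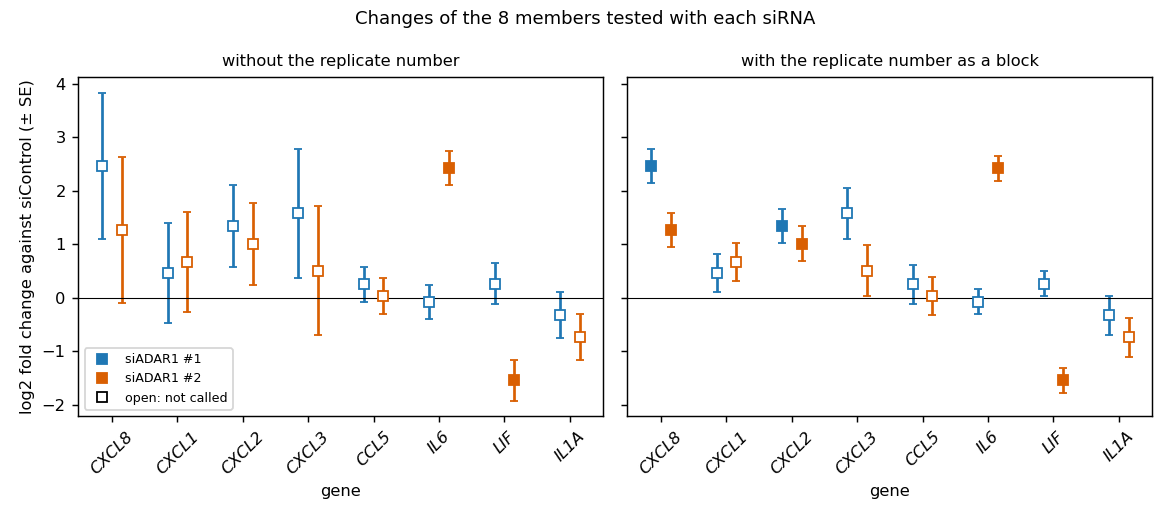
The log2FC against siControl with its SE for the 8 members tested, for siADAR1 #1 and siADAR1 #2, from the fit without the replicate number (left) and with it as a block (right), where filled squares are called genes. The SE of *CXCL8* is 1.37 on the left and 0.316 on the right, and *IL6* and *LIF* with siADAR1 #2 are filled in both.

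The remaining members were not called in any of these fits. *CCL5*, which encodes RANTES (chromosome 17, 35871491 to 35880793, minus strand), had 22.9 and 26.5 normalized counts in siControl, 27.1 and 32.7 with siADAR1 #1, and 27.2 and 23.4 with siADAR1 #2. Both siADAR1 #1 libraries of *CCL5* were above both siControl libraries, as in 28.5% of all genes tested. These values rest on 16 to 29 reads per library, and the log2FC of *CCL5* was 0.25 (SE 0.333) and 0.03 (SE 0.333). *IL1A* (chromosome 2, 112773925 to 112784493, minus strand) was at 25.1 and 39.8 in siControl, 18.7 and 32.7 with siADAR1 #1, and 14.7 and 22 with siADAR1 #2. Both siADAR1 #2 libraries of *IL1A* were below both siControl libraries, with a log2FC of -0.73 (SE 0.429, adjusted p = 0.2397, limma), and 35.6% of all genes tested lay below siControl in this way. *IL1B* (chromosome 2, 112829751 to 112836816, minus strand), at 3.27 and 13.3 in siControl, 3.74 and 7.54 with siADAR1 #1 and 5.67 and 19.0 with siADAR1 #2, and *CCL2* (chromosome 17, 34255274 to 34257208, plus strand), at 0 to 2.51, were too low to compare at this depth.

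With the 4 siADAR1 libraries taken as 1 group against siControl, 0 of 8 members were called, against 0% of all genes tested. In that fit the smallest adjusted p of any gene was 0.08811 (limma), and this was also the value of *ADAR* itself (log2FC -2.53), which was thus not called. Differences between the siRNAs count as spread in that fit, so 0 of 8 does not show that the members were unchanged. An unadjusted p below 0.05 was found for 2869 genes (14.2%), none of them a member. The log2FC of *IL6* was 1.18 (adjusted p = 0.5989) and that of *LIF* was -0.64 (adjusted p = 0.7285). No member had all 4 siADAR1 libraries above or all 4 below both siControl libraries, as 12% and 17% of all genes tested had.

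For each of the 4 CXC chemokines the log2 difference between replicates was larger than the log2FC with either siRNA. Of the 8 members tested, 7 were higher in replicate 2 than in replicate 1 in all 3 groups, against 14.4% of all genes tested, and *CCL5* was the exception. This comparison was added after the values by library had been seen. *CXCL8* had a log2 difference of 3.0 between replicate 2 and replicate 1 (SE 0.258, adjusted p = 0.007099, limma), the 9th smallest p among 20247 genes, of which 0.138% were called in this comparison. *CXCL3* at 2.51 (adjusted p = 0.09187), *CXCL1* at 1.95 (adjusted p = 0.08276) and *CXCL2* at 1.57 (adjusted p = 0.1181) did not pass the adjustment, although they ranked 50th, 38th and 62nd of all genes by p. The ratio of replicate 2 to replicate 1 for these 3 genes was 2.1 to 2.75 in siControl, 5.48 to 7.82 with siADAR1 #1 and 2.34 to 12.8 with siADAR1 #2. *LIF* was almost equal in the siControl libraries (8580 and 8614, ratio 1.00), so that the count of 7 includes this small difference, and its replicate 2 was 2.28 times replicate 1 with siADAR1 #1 and 1.75 times with siADAR1 #2. For *IL6* the ratio was 1.2, 1.47 and 1.66. What differed between the replicates in handling is not given in the sources used here.

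**Figure D3:**
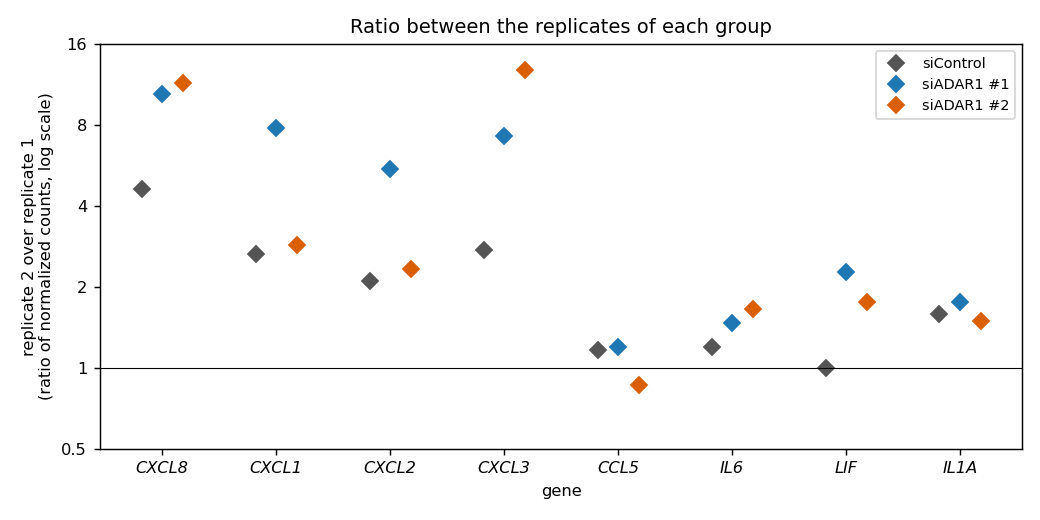
Ratio of replicate 2 to replicate 1 in normalized counts, on a log axis, for the 8 members tested in each group, with a line at 1. The ratio of *CXCL8* is 4.61, 10.5 and 11.4, and *CCL5* with siADAR1 #2 (0.86) is the one value below 1.

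Genes of the first-line interferon response moved with the same replicate. Of 15 listed genes 11 were tested, and 7 of these were higher in replicate 2, among them *IFIT2* with a log2 difference of 1.69 (adjusted p = 0.007292, limma). *IFIT2*, which encodes an interferon-induced protein, also rose with siADAR1 #2 (log2FC 3.19, adjusted p = 0.01776), as did *IFIT3* (log2FC 3.16, adjusted p = 0.03431). These were the 2 genes of the list called with siADAR1 #2, and none was called with siADAR1 #1, but with the replicate block 9 were higher with siADAR1 #2 and 8 with siADAR1 #1, including *IFIT2* (adjusted p = 0.001796) and *IFIT3* (adjusted p = 0.01352) with siADAR1 #1. *IRF1*, a transcription factor gene, had a log2FC of 1.07 with siADAR1 #1 (adjusted p = 0.07138, and 0.02386 with the block). *IFNB1*, the gene of interferon beta, was at 0 to 10.1 normalized counts. Whether the interferon genes and the chemokines share a cause was not tested.

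Of the members, 4 lie in 1 gene cluster, so their neighbours were read as well. The cluster on chromosome 4 holds 9 coding genes over 358.7 kb from *CXCL8* to *CXCL2*. *CXCL6*, *PF4V1* and *PF4* had no read in any library and *PPBP*, a platelet chemokine gene, had 1 read in all. The remaining neighbour, *CXCL5*, another ligand of CXCR2, was at 78.4 and 149.9 normalized counts in siControl, 140.3 and 515 with siADAR1 #1, and 155.4 and 293 with siADAR1 #2. Its order of libraries is close to that of *CXCL2*, and its log2FC of 1.29 (adjusted p = 0.187, limma) and 0.96 (adjusted p = 0.2792) did not pass. With the replicate block *CXCL5* passed with both siRNAs, at adjusted p = 0.01517 and 0.03227.

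**Figure D4:**
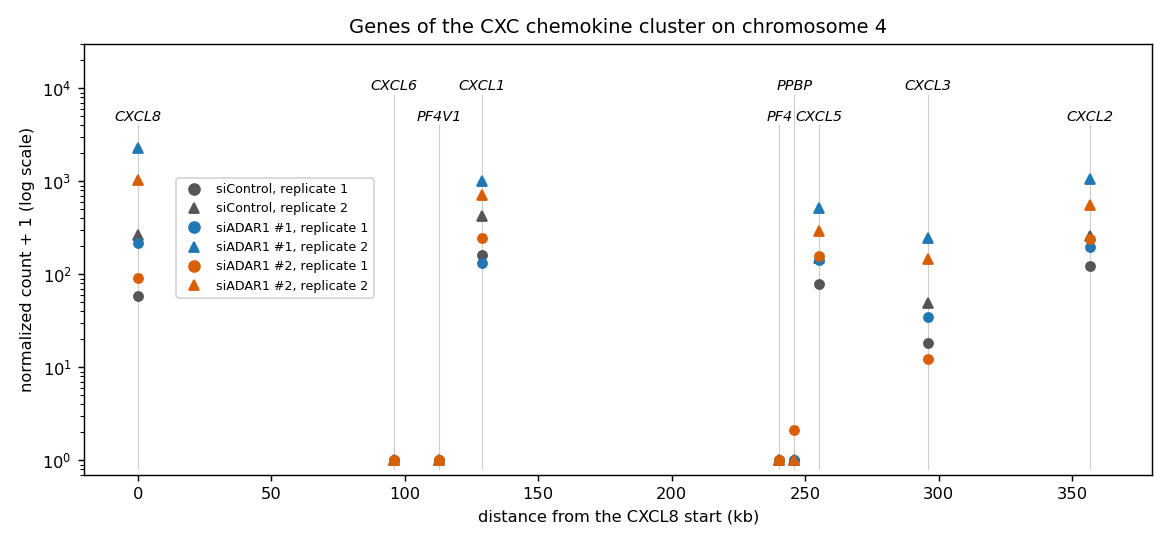
Normalized count plus 1 on a log axis for the 9 coding genes of the chromosome 4 cluster, placed by distance in kb from the start of *CXCL8*, with 1 point per library. The 5 genes with reads above the floor are interleaved with 4 genes at or near 0, and their siADAR1 #1 replicate 2 library is the highest in each.

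The other secreted ligands were counted over lists chosen by function. Of 13 further CXC and CX3C chemokines 6 were tested, and 1 was called with siADAR1 #1 and 0 with siADAR1 #2 (3 and 2 with the replicate block). The one called, *CXCL16*, a transmembrane chemokine, was at 387 and 347 normalized counts in siControl and at 868 and 958 with siADAR1 #1, a log2FC of 1.31 (adjusted p = 0.01061, limma). *CXCL10*, an interferon-induced chemokine, reached 37.7 normalized counts at most, with a log2FC of 2.45 and 2.40 that did not pass (adjusted p = 0.188 and 0.1624) but did with the block (adjusted p = 0.01905 and 0.01399). Of 14 further CC chemokines 3 were tested, and *CCL28*, a mucosal chemokine, fell with siADAR1 #1 (log2FC -0.85, adjusted p = 0.04982), while *CCL20* and *CCL22* were not called with either siRNA.

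Of 30 other interleukins and colony-stimulating factors 13 were tested, and with siADAR1 #1 3 were higher and 1 was lower (6 and 1 with the block), while with siADAR1 #2 0 were higher and 3 lower (1 and 3 with the block). *IL11*, a further cytokine that signals through gp130, moved in opposite directions. It was at 82.8 and 114.2 normalized counts in siControl, 659 and 695 with siADAR1 #1, and 17.0 and 36.6 with siADAR1 #2. The libraries of the 3 groups did not overlap. Of all genes tested, 28.5% lay above siControl in both siADAR1 #1 libraries, and 35.6% lay below it in both siADAR1 #2 libraries. The log2FC of *IL11* was 2.77 with siADAR1 #1 (SE 0.354, adjusted p = 0.004323, limma) and -1.85 with siADAR1 #2 (SE 0.354, adjusted p = 0.006913). *CLCF1*, also of the gp130 family, fell with siADAR1 #2 (log2FC -1.15, adjusted p = 0.003556) and was at 0.09 with siADAR1 #1. Of the gp130 cytokines named here *LIF*, *IL11* and *CLCF1* were thus lower and *IL6* was higher with siADAR1 #2. *MIF*, a constitutively made inflammatory cytokine, was the one gene of this list lower with both siRNAs, by a log2FC of -1.02 (adjusted p = 0.0109) and -0.66 (adjusted p = 0.03041).

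Among 20 receptors and decoys of the members 9 were tested, and 0 were called with siADAR1 #1 while 3 were higher and 2 lower with siADAR1 #2. The chemokine receptor *CXCR1* had no read and *CXCR2* stayed between 1.87 and 12 normalized counts. The gp130 gene *IL6ST* was at 15834 and 13171 normalized counts in siControl and at 24939 and 21091 with siADAR1 #2, a log2FC of 0.67 (adjusted p = 0.009174, limma). The partner subunits fell with siADAR1 #2, *LIFR* by a log2FC of -1.41 (adjusted p = 0.007348) and *OSMR*, the oncostatin M receptor, by -0.74 (adjusted p = 0.005751). In the STAT3 pathway, 2 of 12 genes were higher and 2 lower with siADAR1 #1 (2 and 3 with the block), and 0 higher and 1 lower with siADAR1 #2 (1 and 1 with the block). *SOCS3*, a feedback inhibitor of gp130 signalling, rose with siADAR1 #1 (log2FC 1.11, adjusted p = 0.01892) and was at 0.64 with siADAR1 #2 (adjusted p = 0.08353, and 0.01376 with the block). *SBNO2* fell with siADAR1 #1 (log2FC -1.13, adjusted p = 0.005173), and the kinase gene *JAK1* fell with siADAR1 #2 (log2FC -0.99, adjusted p = 0.003256).

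Of 20 genes of interleukin-1 processing and signalling 18 were tested, with 1 higher and 4 lower with siADAR1 #1 and 3 higher and 4 lower with siADAR1 #2 (4 and 6 with the block). *NLRP1*, an inflammasome sensor, was higher with both siRNAs, at 47.9 and 62.2 normalized counts in siControl, 348 and 259 with siADAR1 #1 and 137.2 and 117.2 with siADAR1 #2. *CAPN2*, a calpain subunit gene, was lower with siADAR1 #2 (log2FC -2.54, adjusted p = 0.0004579, limma), as were *IRAK3*, a negative regulator of interleukin-1 signalling (log2FC -1.89, adjusted p = 0.00154), and the kinase gene *MAP3K7* (log2FC -0.91, adjusted p = 0.001355).

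The 16 NF-kappaB subunits and feedback genes were all tested, and 2 were higher with siADAR1 #1 and none was lower (6 higher with the block), while 2 were higher and 1 lower with siADAR1 #2 (3 higher and 2 lower with the block). The subunit gene *RELA* rose with siADAR1 #1 (log2FC 0.59, adjusted p = 0.01355, limma). The inhibitor gene *NFKBIE* rose with siADAR1 #2 (log2FC 2.01, adjusted p = 0.00569), and *BCL3*, an atypical inhibitor family member, fell (log2FC -1.81, adjusted p = 0.008407). Of 15 AP-1, C/EBP and ATF genes, 7 were higher and 3 lower with siADAR1 #1 (7 and 4 with the block) and 3 higher and 2 lower with siADAR1 #2 (4 and 2 with the block). The stress-induced factors *ATF3* (log2FC 2.27 and 1.05, adjusted p = 0.002903 and 0.009793) and *DDIT3* (0.92 and 1.59, adjusted p = 0.009772 and 0.0006519) were higher with both siRNAs. The AP-1 genes *FOSL1* (log2FC -2.60, adjusted p = 0.0008651) and *FOS* (log2FC -1.54, adjusted p = 0.001523) were lower with siADAR1 #2, and with the block *FOSL1* was also lower with siADAR1 #1 (log2FC -0.64, adjusted p = 0.0396).

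Proteins that act on AU-rich mRNAs were represented by 18 genes, all tested, of which 4 were higher and 2 lower with siADAR1 #1 (5 and 2 with the block) and 2 higher and 4 lower with siADAR1 #2. *ZFP36*, which encodes tristetraprolin, a factor that destabilizes cytokine mRNAs, was higher with both siRNAs, by a log2FC of 1.10 (adjusted p = 0.005511, limma) and 0.77 (adjusted p = 0.008426). *ELAVL1*, which encodes the stabilizing factor HuR, was lower with both, by -0.72 (adjusted p = 0.0262) and -0.80 (adjusted p = 0.01092). *KHSRP* and *CNOT1*, which take part in decay and deadenylation, fell with siADAR1 #2 (log2FC -0.78 and -1.26, adjusted p = 0.001957 and 0.0005031), and the deadenylase gene *PARN* fell with siADAR1 #1 (log2FC -1.46, adjusted p = 0.00299). The lifetimes of the mRNAs were not measured.

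Of 18 further genes for proteins secreted or used by senescent and tumor cells, 13 were tested, and 3 were higher and 1 lower with siADAR1 #1 (6 and 1 with the block), and 4 higher and 5 lower with siADAR1 #2. *VEGFA*, an angiogenic factor, rose with both (log2FC 0.73 and 0.79, adjusted p = 0.01614 and 0.006217, limma), and the urokinase receptor gene *PLAUR* fell with both (log2FC -1.20 and -1.06, adjusted p = 0.0331 and 0.03482). *PLAU* and *HBEGF* moved in opposite directions, up with siADAR1 #1 (log2FC 1.30 and 1.07, adjusted p = 0.004345 and 0.01134) and down with siADAR1 #2 (log2FC -1.41 and -1.35, adjusted p = 0.001103 and 0.002277). *AREG*, a ligand of the EGF receptor, was at 40.3 and 34.7 normalized counts in siControl, 43 and 47.7 with siADAR1 #1, and 268.7 and 237.3 with siADAR1 #2. As for *IL6*, the siADAR1 #2 libraries stood above the others, and 32.5% of all genes tested had both siADAR1 #2 libraries above siControl.

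The 5 genes with the pattern most like that of *LIF*, the member with the highest mean level, were ENSG00000259709, *TIFA*, *C17orf67*, *PTP4A3* and *CIAO2B*, with Pearson coefficients of 0.99 for each over the 6 libraries and among 14285 genes with an SD of at least 0.3. With 6 libraries and so many genes, coefficients of this size are a description of likeness and no more.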

How the data were processed

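Poly(A)+ RNA of Cal62 cells was sequenced with 75-bp paired-end reads, in 2 libraries for each of 3 siRNAs. Per the labels and the study's methods, the authors checked reads with FastQC, trimmed adapters, counted reads on genes of GRCh38 with featureCounts, estimated counts with Salmon in parallel and normalized with DESeq2, for which the methods prefer the Salmon estimates. Which of these counts lie behind the table is not stated. The annotation release is not given in the sources used here. The deposited values are log2 values, 1 column per library, and 0 columns were left unused. Their lowest value, 0.347736, stands for a count of 0, and undoing the variance-stabilizing transformation gave whole reads for 100% of values (tolerance 0.1). Symbols and coordinates came from GENCODE release 44, and 1 listed symbol (*SOD2*) had no row.

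The deposited log2 values were fitted with limma 3.58.1 in R 4.3.3 (lmFit, eBayes with trend, two-sided), with 3 groups, or with the 4 siADAR1 libraries as 1 group. Genes with a mean of at least 10 normalized counts were tested, with Benjamini-Hochberg adjustment over 20247 genes, and a gene was called at an adjusted p below 0.05 and a log2FC beyond 0.5. The fit was tested on simulated data that held no difference between the replicates. That test does not bear on calls made only under the block. Same-numbered libraries deviated together, though weakly (correlation across 20247 genes 0.111, 0.13 and 0.15 for the 3 pairs of groups). Blocked values are therefore given where they change a stated call. With 2 libraries per group the number of replicates limits the precision. Depth was 30114840 to 50029763 reads on genes.

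The members and lists were chosen with earlier results of these data known. Named genes were the members, *ADAR*, from each list those called the same way with both siRNAs (at most 5) and the 3 with the smallest adjusted p, and the 5 genes most correlated with the member of highest mean. Genes of the chromosome 4 cluster, *CXCR1*, *CXCR2*, *IFNB1* and some marker genes were added after values were seen. Alternatives were other filters (none, 50 normalized counts), scalings, voom on the recovered reads, the block and leaving out each library.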

Additional observations from a re-analysis of the deposited data

Results flagged for a closer look

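The changes of 2 members differed between the siRNAs by the direct limma contrast of siADAR1 #2 with siADAR1 #1, where each siRNA had been set against the same siControl libraries. For *IL6* the change with siADAR1 #2 minus the change with siADAR1 #1 was 2.5 on the log2 scale (adjusted p = 0.001065, limma), with both siADAR1 #2 libraries above both siADAR1 #1 libraries. For *LIF* the difference was -1.81 (adjusted p = 0.008203), with both siADAR1 #2 libraries below both siADAR1 #1 libraries.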

How the results depend on the processing

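With 2 libraries per group, single libraries weigh heavily, and low genes such as *CCL5*, *IL1A*, *IL1B* and *CCL2* are limited by reads. *IL6* with siADAR1 #2 stayed called in 15 of 15 alternatives (log2FC 2.06 to 2.79, adjusted p = 0.000349 to 0.0225, limma), and *LIF* in 11 of 15 (log2FC -1.95 to -1.15, adjusted p = 0.002097 to 0.1155). For the number of members called, the replicate block gave 2 with siADAR1 #1 in place of 0 and 4 with siADAR1 #2 in place of 2, and changed no call of *IL6* or *LIF*. Without a trend in eBayes the number was 1 with siADAR1 #2, where *LIF* had an adjusted p of 0.07268. Leaving out 1 library gave 1 to 2 members called with siADAR1 #2, 0 with siADAR1 #1, 1 to 2 between the siRNAs and 0 for both siRNAs as 1 group. The share of all genes called was counted for the block and not for the other alternatives, so their numbers of members have no background. By the mean of the changes with each siRNA, *IL6* was the one member called (log2FC 1.18, adjusted p = 0.02242, limma). That mean joins a log2FC of 2.42 with siADAR1 #2 and of -0.07 with siADAR1 #1, so it shows no rise shared by the siRNAs.

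The direction reversed for 24 pairs of a value and an alternative, each for a log2FC that was not itself called in the fit without the block. Median-centred libraries gave *IL6* with siADAR1 #1 a log2FC of 0.07, and quantile normalization gave *CCL5* with siADAR1 #2 one of -0.14. The others came from leaving out 1 library, and the cause was not tested. With siADAR1 #1 the log2FC then ranged from -0.34 to 0.20 for *IL6*, from -1.0 to 1.94 for *CXCL1*, from -0.69 to 0.04 for *IL1A* and from -0.33 to 0.86 for *LIF*. With siADAR1 #2 it ranged from -0.47 to 3.01 for *CXCL8*, from -0.09 to 1.42 for *CXCL1*, from -1.20 to 2.22 for *CXCL3* and from -0.07 to 0.13 for *CCL5*. Between the siRNAs it ranged from -2.94 to 0.54 for *CXCL8*, from -1.28 to 1.67 for *CXCL1*, from -1.55 to 0.89 for *CXCL2* and from -2.78 to 0.64 for *CXCL3*, and for both siRNAs as 1 group from -0.13 to 1.26 for *CXCL1*.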

Other observations

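*BIRC3*, which encodes a ubiquitin ligase of the TNF receptor pathway and is a known NF-kappaB target, was at 462.8 and 1457 normalized counts in siControl, 1796 and 11580 with siADAR1 #1 and 215.5 and 722 with siADAR1 #2, so its replicate 2 was the higher one in each group, as for *CXCL8*. *NFKBIA*, an inhibitor gene of NF-kappaB, was at 1104 and 1586 in siControl, 1888 and 5896 with siADAR1 #1 and 872 and 1715 with siADAR1 #2, again with replicate 2 higher in each group. The values of *TNFAIP3*, which encodes the feedback inhibitor A20, were 123 and 215, 101 and 657, and 302 and 948 in the same order. These genes were chosen after their values were seen. With the replicate block *BIRC3* was higher with siADAR1 #1 and lower with siADAR1 #2 (adjusted p = 0.001386 and 0.01284, limma). *CXCL8* was higher with both. Of the 16 NF-kappaB subunits and feedback genes, 1 was called in the comparison of replicate 2 with replicate 1.

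In the comparison of replicate 2 with replicate 1, 28 genes were called, of which 25 were higher in replicate 2. The 5 genes with the pattern most like that of *CXCL8* over the 6 libraries were *CMPK2*, *CXCL3*, *LINC02605*, *RELB* and *RAB39B*, with Pearson coefficients of 0.97 to 0.98, and *CXCL8* was chosen for this after its values were seen.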
